A study of Drosophila melanogaster with 9 samples.

Results

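The 6 conventional actin genes of Drosophila melanogaster, Act5C, Act42A, Act57B, Act79B, Act87E and Act88F, were followed by their gene symbols among 17559 genes counted in S2R+ cells, an embryonic line that resembles blood cells. Poly(A) RNA was read in 9 libraries that fall into 3 groups of 3: cells expressing a GFP with a nuclear localisation signal as control, cells with the Hox transcription factor Ultrabithorax in its normal form (Ubx-WT), and cells with a Ubx whose homeodomain bears the residue change N51A (the Ubx-N51A group). All groups carried their transgene in the Gal4-UAS system with an actin promoter. The labels do not say which actin gene that promoter comes from, and the counts do not separate reads of such a construct from those of the cells' own genes. The protocols give Ubx a myc tag where the sample characteristics give it GFP. The design text speaks of 4 independent replicates, of which the submitters kept 3 per group after a principal component analysis. Whether that narrowed the spread the p-values rest on was not tested.

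Actin is the globular protein that polymerises into the filaments of the cell cortex, the contractile ring and the muscle sarcomere. Drosophila makes it from a small family of genes whose proteins are nearly alike and which differ mainly in where they are transcribed. Act5C and Act42A are the cytoplasmic actins of most cells. Act57B and Act87E are muscle actins of larval and other body wall muscles, Act79B is used in the tubular muscles of the adult thorax and legs, and Act88F builds the thin filaments of the indirect flight muscles.

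The libraries held 30967554 to 66828787 reads in genes. Ubx had 8 to 89 reads per library with GFP and at least 51719 with either Ubx protein, which is the direction the labels give. The blood cell label was read beside 16 markers, of which 12 reached a mean of 1 CPM (reads of a gene per 1000000 reads in genes) or more. They include the GATA factor gene srp at 210 to 242 CPM and the peroxidasin gene Pxn at 406 to 502 CPM, while the phagocytic receptor gene NimC1 stayed below 0.1 CPM. Of 4 neuron genes 1 passed the same bar, elav, at 32.6 to 51.4 CPM, so the bar alone does not tell cell types apart. Genes of the mitochondrial genome took 1.92% to 3.43% of the reads with GFP, 2.77% to 4.91% with Ubx-WT and 4.11% to 5.87% with Ubx-N51A. File names differ between the groups in a word on sorting, and a sorting step, if there was one, cannot be told apart from the expressed protein.

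The 6 genes are scattered over the genome (BDGP6.54, the assembly of dm6). Act5C (FBgn0000042) lies on the X at 5900861 to 5905399, Act42A (FBgn0000043) on 2R at 6013910 to 6015689 on the minus strand, and Act57B (FBgn0000044) on 2R at 20944021 to 20946431. Act79B (FBgn0000045) lies on 3L at 21985210 to 21987190, Act87E (FBgn0000046) on 3R at 13425983 to 13428375, and Act88F (FBgn0000047) on 3R at 15439969 to 15442177. Every member codes for 376 residues in 1128 coding bases without the stop codon. The genes differ in the parts around the coding sequence. Act5C, Act42A and Act87E have an uninterrupted coding sequence, Act57B has an intron after 40 coding bases, and Act79B and Act88F share an intron position after 925 coding bases. Act5C has 5 annotated transcripts, with 3' untranslated regions of 345 to 1571 bases, and Act87E has 3 with 355 to 641 bases, against 1 transcript each for Act42A, Act57B and Act88F. The plot of the annotated transcripts shows these differences to scale.

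**Figure D1:**
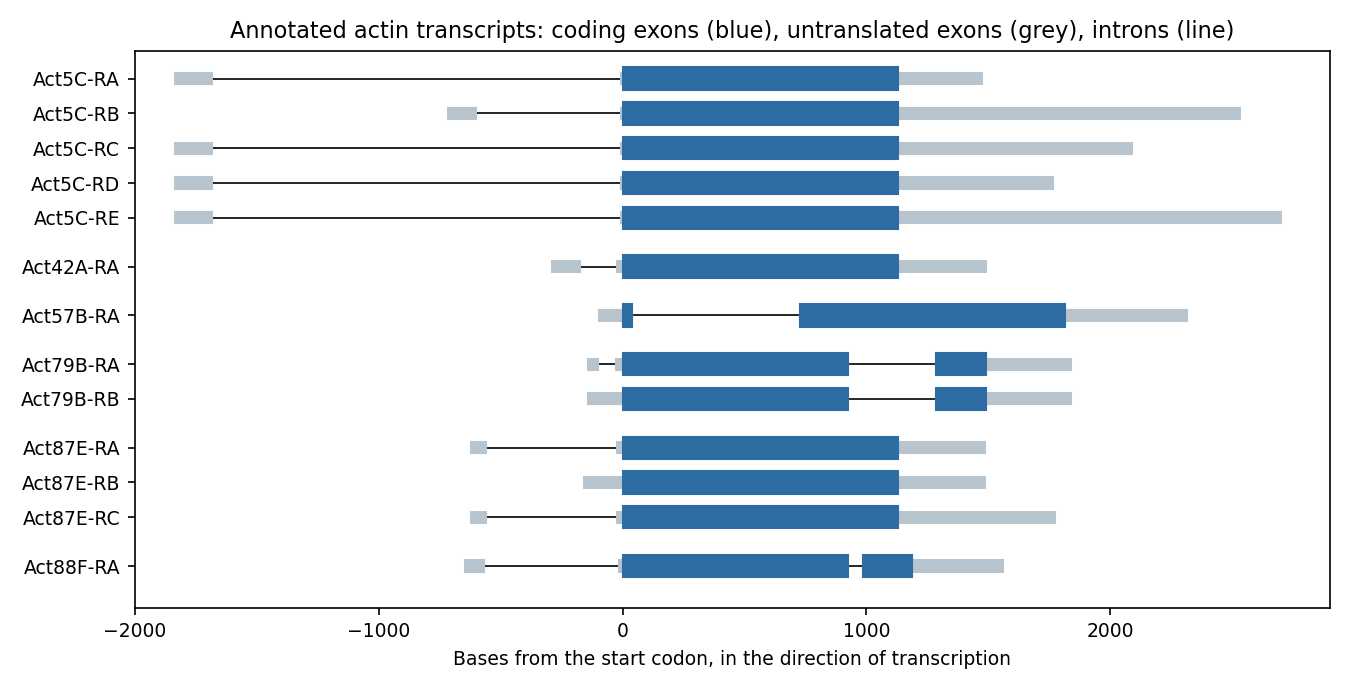
Annotated transcripts of the 6 actin genes, drawn in bases from the start codon in the direction of transcription. Thick blue boxes are coding exons, thin grey boxes untranslated exons and lines introns; the coding sequence is unbroken in Act5C, Act42A and Act87E and split in the other 3 genes.

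Since the coding sequences of the family are alike, a read of 75 bases from them can align to several members. Reads with several alignments made up 3.26% to 5.05% of each library and were not assigned to genes. How many of them came from actin genes was not tested. Thus the levels below are of the reads that could be placed, and levels between members are less certain than changes of 1 member between groups.

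S2R+ cells made their actin transcripts almost wholly from the cytoplasmic pair. In the GFP libraries Act42A gave 63.0% to 65.8% of the reads of the family and Act5C 34.2% to 37.0%, and the other 4 genes together gave 11 to 19 reads per library out of 324683 to 396208. Act42A stood at 5311 ± 220.3 CPM with GFP (mean ± SD, n = 3; library sizes scaled by TMM factors, which align the bulk of the genes between libraries), the 7th most abundant of all genes. Per kilobase of exon it reached 3267 ± 135 CPM, rank 10 of 17253 genes with a length, among mostly ribosomal protein genes. Act5C stood at 2943 ± 302 CPM, rank 23, and at 988 ± 102 CPM per kilobase, rank 89.

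The order of the pair did not hang on the length chosen, but its size did. Act42A was 3.32 times Act5C per kilobase of merged exons with GFP, and 1.82 times per kilobase of the shortest annotated transcripts, because the long 3' ends of Act5C add to its merged length. Without a length the ratio of CPM was 1.70 to 1.93 in the GFP libraries. It was 1.59 to 1.68 in the Ubx-WT libraries and 1.65 to 1.69 in the Ubx-N51A libraries, in each case below every GFP library. As a ratio of 2 members, it was given no test.

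The muscle actins were at the edge of detection. With GFP, Act57B had 14, 5 and 11 reads, Act87E 4, 1 and 6, Act88F 0, 3 and 1, and Act79B 0, 2 and 1. Per kilobase of exon these were 0.128 ± 0.0554 CPM for Act57B, 0.0391 ± 0.0237 for Act87E, 0.0200 ± 0.0249 for Act88F and 0.0145 ± 0.0159 for Act79B (n = 3). The lowest Act57B library lay above the highest Act87E library on the scale of CPM, and the values of Act87E, Act88F and Act79B overlapped. The step to the cytoplasmic pair was the widest in the order of the 6 levels, as the plot of CPM by library shows.

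**Figure D2:**
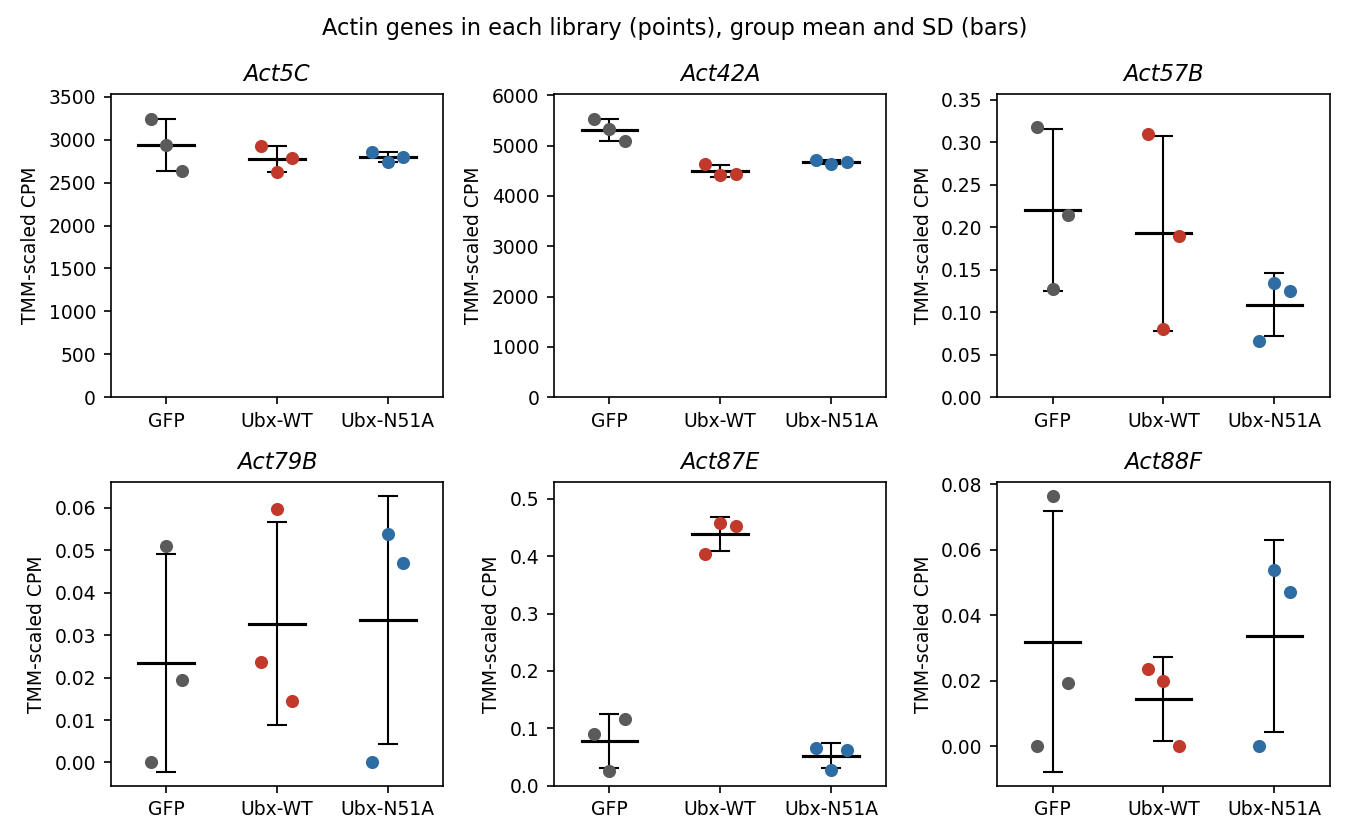
TMM-scaled CPM of the 6 actin genes in each library, with 1 point per library, the group mean as a line and its SD as a bar; each panel has its own linear axis, and SD bars of the lowest genes run below 0. The Act42A points with GFP lie above those of both other groups, and the Act87E points with Ubx-WT, at 0.404 to 0.459 CPM, lie above all others of that gene.

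The first comparison asks which actin transcripts differed in amount between Ubx-WT and GFP cells. Cytoplasmic Act42A was lower with Ubx-WT, by 1.18-fold, and the muscle actin Act87E was several times higher, from a very low base. Act5C did not pass the test. Of the 6 members 3 passed the expression filter, and of these 1 was called higher and 1 lower, where 8.72% of all 9207 genes tested were called higher and 7.83% lower (16.6% in either direction). Act87E passed the filter through its Ubx-WT libraries alone, so the count is not read as a property of the family.

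Act42A measured 5524, 5326 and 5084 CPM in the GFP libraries and 4641, 4409 and 4437 CPM in the Ubx-WT libraries. Every Ubx-WT library was below every GFP library, a separation that 35.4% of all tested genes showed between these groups. The log2 fold change was -0.24 (SE 0.055, 95% interval -0.36 to -0.12; edgeR quasi-likelihood test, Benjamini-Hochberg adjusted p = 0.00903). Without TMM factors, on reads in genes alone, it was -0.19 with adjusted p = 0.0316. With the mitochondrial genes and Ubx left out of the counts, whose shares differ between the groups, it was -0.24 with adjusted p = 0.00378. The TMM factors were 0.982 to 0.993 with GFP and 1.02 to 1.03 with Ubx-WT, and leaving them out moved the median of all genes from 0.00 to 0.05 on the log2 scale. In RNA from whole cultures, fewer cells of a type and less RNA per cell cannot be told apart.

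Act5C measured 3245, 2944 and 2639.9 CPM with GFP and 2927, 2623 and 2789.9 CPM with Ubx-WT. The groups overlapped, and the GFP libraries spread the most, with a coefficient of variation of 10.3% against 4.15% for Act42A in the same libraries. The log2 fold change was -0.08 (SE 0.072, 95% interval -0.24 to 0.07; edgeR adjusted p = 0.482). Whether Act5C and Act42A differed in their change was not tested. The 6 genes together took 0.767% to 0.866% of the reads in genes with GFP and 0.721% to 0.774% with Ubx-WT.

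Act87E had 4, 1 and 6 reads in the GFP libraries and 17, 23 and 31 in the Ubx-WT libraries, which is 0.0909, 0.0255 and 0.117 CPM against 0.404, 0.459 and 0.452 CPM. All Ubx-WT libraries were above all GFP libraries, where 35.4% of all tested genes were separated in either direction. The log2 fold change was 2.40 (SE 0.375, 95% interval 1.59 to 3.21; edgeR adjusted p = 0.000805). From the summed reads, 71 against 11, the ratio was 5.40 with an exact 95% binomial interval of 2.84 to 11.3, which covers counting error only. By size the rise was number 89 of the 803 genes called higher. Even so, the mean of 0.438 ± 0.0298 CPM (n = 3) put Act87E at rank 8372 of all genes by CPM with Ubx-WT, and Act42A in the same cells stood at 4496 ± 127 CPM.

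**Figure D3:**
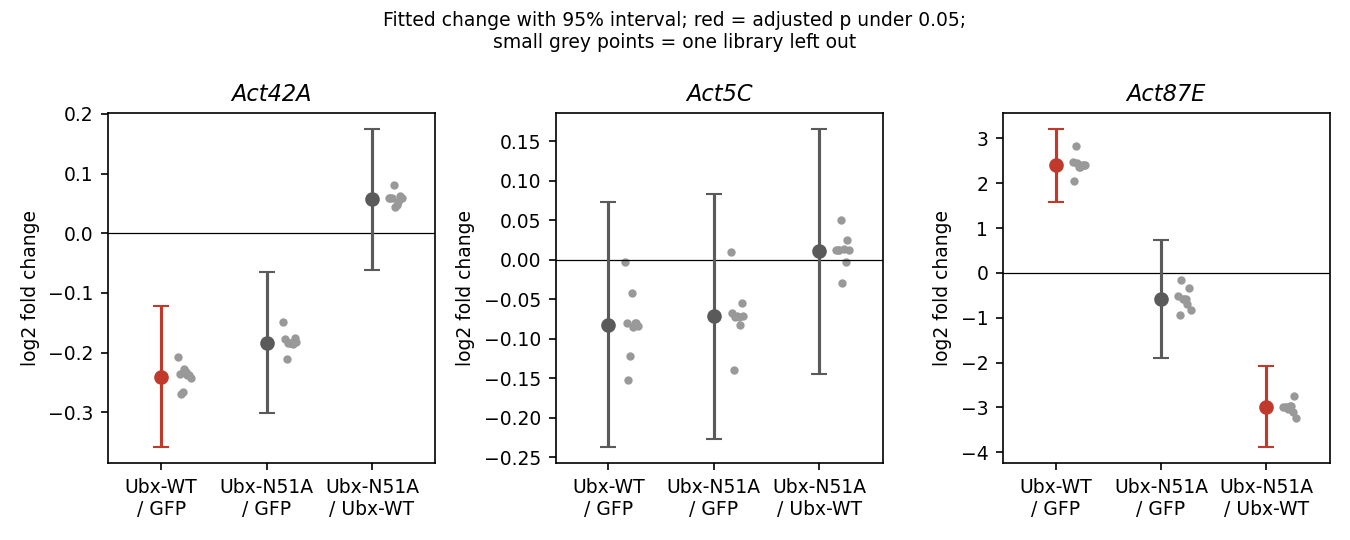
Fitted log2 fold changes of the 3 actin genes that passed the expression filter in the 3 comparisons, with 95% intervals as bars; red points passed an adjusted p of 0.05, and small grey points are fits with 1 library left out. Act42A and Act87E are called between Ubx-WT and GFP, and Act87E between the Ubx proteins; each panel has its own axis.

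The second comparison sets Ubx-N51A against GFP. No member was called by edgeR (0 of 3 tested), where 8.09% of all genes were called (3.38% higher and 4.71% lower), and 1 of the 3, Act42A, had an unadjusted p under 0.05; DESeq2 called 1. Act42A measured 4721, 4639.9 and 4668 CPM with Ubx-N51A, with all libraries below the lowest GFP library at 5084 CPM, as 29.4% of all genes were separated between these groups. The log2 fold change was -0.18 (SE 0.055, 95% interval -0.30 to -0.07; edgeR adjusted p = 0.0573), just outside the threshold. It was inside it by DESeq2 (adjusted p = 0.00026), with no expression filter (0.0206), with the mitochondrial genes and Ubx left out of the counts (0.0308) and without Ubx-WT replicate 2 (0.0445). It was farther outside it without GFP replicate 1 (0.195), GFP replicate 2 (0.191) or Ubx-N51A replicate 2 (0.170), and the 5 other libraries left out singly gave 0.0587 to 0.122.

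Act5C measured 2859, 2744 and 2798 CPM with Ubx-N51A, within the range of the GFP libraries, and its log2 fold change was -0.07 (SE 0.072, 95% interval -0.23 to 0.08; edgeR adjusted p = 0.588). Act87E had 2, 1 and 4 reads with Ubx-N51A. These overlapped the GFP libraries, and the log2 fold change was -0.59 (SE 0.607; edgeR adjusted p = 0.618). Its 95% interval of -1.91 to 0.73 is wide, and changes inside it remain possible.

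The third comparison tests the difference between the Ubx proteins directly. Act87E was lower with Ubx-N51A than with Ubx-WT, and neither cytoplasmic actin passed the test. Of the 3 members tested 1 was called lower, where 3.91% of all genes were called lower, 1.23% higher and 5.14% in either direction. As that member is Act87E, which passed the filter through the Ubx-WT libraries alone, nothing is read from the count. The Act87E libraries did not overlap, at 0.0269 to 0.0665 CPM with Ubx-N51A against 0.404 to 0.459 CPM with Ubx-WT, a separation that 22.9% of all genes showed. The log2 fold change was -2.99 (SE 0.416, 95% interval -3.89 to -2.09; edgeR adjusted p = 0.000682). From 7 against 71 summed reads, Ubx-WT was 8.27 times higher (exact 95% binomial interval 3.81 to 21.3). Ubx transcripts stood at 1721 to 2274 CPM with Ubx-N51A and at 1384 to 1708 CPM with Ubx-WT, so Ubx-N51A libraries held more of them.

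For the cytoplasmic pair the direct comparison gave values near 0. The log2 fold change of Act42A was 0.06 (SE 0.054, 95% interval -0.06 to 0.17; edgeR adjusted p = 0.66) and that of Act5C 0.01 (SE 0.072, 95% interval -0.14 to 0.17; edgeR adjusted p = 0.963). Differences inside these intervals remain possible, so equal levels are not shown. Act42A libraries of the 2 Ubx groups overlapped, at 4639.9 to 4721 and 4409 to 4641 CPM.

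The reads of Act87E were also set beside measures that could move with them. Per 1000000 reads of Act5C and Act42A together, Act87E had 3.08 to 15.1 reads in the GFP libraries, 53.4 to 65.2 with Ubx-WT and 3.64 to 8.78 with Ubx-N51A. The Ubx-WT libraries stood above all others on this scale too. It holds the same Act87E reads, and the summed actin CPM ran only from 7032 to 8769 over the 9 libraries. The scale is therefore no separate support for the rise. The antisense gene lncRNA:CR45591 shares 60 exon bases with the first exon of Act87E and had 3, 1 and 2 reads over the GFP, Ubx-WT and Ubx-N51A groups. The nearest coding gene, yrt, which encodes the FERM-domain protein Yurt and ends 491 bases away on the other strand, stood at 65.9 to 67.7 CPM with GFP and 66.6 to 69.6 CPM with Ubx-WT. Its levels overlapped (log2 fold change 0.02, edgeR adjusted p = 0.766). Its neighbour on the other side, Ir87a, had at most 4 reads in any library.

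The other 3 muscle actins failed the expression filter, which asked for about 0.224 CPM in 3 libraries, and were compared by exact two-sided permutation tests of CPM, for which the smallest possible p with 3 against 3 is 0.1. Act57B had 13, 4 and 13 reads in the Ubx-WT libraries, against 2, 5 and 8 in those of Ubx-N51A. The groups overlapped in each comparison (exact permutation p = 0.7 for Ubx-WT against GFP, 0.2 for Ubx-N51A against GFP and 0.3 between the Ubx proteins), and the summed reads of Ubx-N51A and GFP, 15 and 30, gave a ratio of 0.513 (95% binomial interval 0.257 to 0.984, counting error only). Act79B had at most 3 reads in any library and 3 to 5 in a group. Act88F had at most 3 reads in any library and 2 to 5 in a group. Their exact permutation p-values ran from 0.4 to 1, and the intervals of their read ratios all included 1.

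Muscle markers were read beside Act87E, since it is a muscle gene. Of 21 sarcomere genes 11 stayed below 0.3 CPM in every library, among them the muscle myosin heavy chain gene Mhc and the tropomyosin gene Tm2, and the troponin C gene TpnC47D had no read in any library. The listed muscle marker wupA had no match by symbol and was not examined. The summed level of the list was 523 to 590 CPM with GFP, 567 to 599 with Ubx-WT and 499.8 to 608 with Ubx-N51A, most of it from Msp300 and Zasp52, which other cells use as well. With Ubx-WT 2 of 11 tested sarcomere genes rose and 1 fell, with a median log2 fold change of 0.06, where 8.72% of all genes were called higher and 7.83% lower. There was 1 rise without GFP replicate 1 or 2, or Ubx-WT replicate 2 or 3, and 0 falls without GFP replicate 2 or 3, any 1 Ubx-WT library, or the TMM factors. The troponin C gene TpnC4 rose by 0.69 (edgeR adjusted p = 0.0225) and the myosin light chain kinase gene Strn-Mlck by 0.30 (0.00816), while the titin-like gene sls fell by 0.38 (0.0341).

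Of 3 muscle transcription factor genes tested 1 was called higher with Ubx-WT, where 8.72% of all genes were. Another 1 was lower at an unadjusted edgeR p under 0.05 but was not called. The called gene was the homeobox gene tin, a factor of heart and early mesoderm. It rose with Ubx-WT from 37 reads over the GFP libraries to 100 (log2 fold change 1.18, edgeR adjusted p = 0.035). DESeq2 did not make this call, and it was lost without GFP replicate 1, 2 or 3, or Ubx-WT replicate 1 or 3, left out singly. Mef2, the main muscle transcription factor gene, lay at 73.5 to 79.5 CPM with GFP, 73.8 to 79.2 with Ubx-WT and 71.4 to 76.5 with Ubx-N51A. Tm2 had 2, 19 and 5 reads over the GFP, Ubx-WT and Ubx-N51A groups, and Mhc 7, 20 and 18. The part of a few muscle-like cells in the Act87E result was not tested. With Ubx-N51A against GFP 1 of 11 sarcomere genes was called, a fall of sls (-0.65, edgeR adjusted p = 0.00475).

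Genes that serve the actin protein were read from lists. The most uniform was that of actin folding, the CCT chaperonin, a ring that folds actin and tubulin, and prefoldin, which hands it the new chains. With Ubx-WT 11 of 13 of these genes fell by edgeR, where 7.83% of all genes fell, and 12 by DESeq2, and 0 rose by either (0 at an unadjusted p under 0.05). The median log2 fold change was -0.21, against 0.00 for all genes. CCT subunit genes and prefoldin genes were both among the genes that fell. The listed subunit gene CCT8 had no match by symbol and was not examined. The prefoldin gene Pfdn5 measured 107, 106 and 108 CPM with GFP and 88.9, 87.2 and 90.8 CPM with Ubx-WT (log2 fold change -0.27, SE 0.036, edgeR adjusted p = 0.00026). Its groups did not overlap, as was so for 35.4% of all tested genes. Pfdn1 fell by 0.25 (edgeR adjusted p = 0.0109) and CCT7 by 0.24 (0.00735). Pfdn5, Pfdn1 and CCT7 are named because their falls were the largest of the list. Act42A stood at -0.24 and Act5C at -0.08, and a link of either with the folding genes was not tested.

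With Ubx-N51A 2 of 13 folding genes fell against GFP by edgeR, where 4.71% of all genes fell, and 6 by DESeq2, with a median of -0.14 beside 0.01 for all genes. The count was 0 without GFP replicate 1 or 2, Ubx-WT replicate 3, or Ubx-N51A replicate 1 or 2. It was 1 without GFP replicate 3 or Ubx-N51A replicate 3, and 5 without Ubx-WT replicate 1 or 2. The edgeR falls were CCT1 (-0.18, edgeR adjusted p = 0.0407) and CCT7 (-0.20, 0.0347). Between the Ubx proteins 3 of 13 were higher with Ubx-N51A, where 1.23% of all genes were, and 1 without TMM factors. All 3 are prefoldin genes: Pfdn2 (0.25, edgeR adjusted p = 0.00723), Pfdn5 (0.18, 0.0118) and Pfdn6 (0.17, 0.0367). Prefoldin genes are short, and in the shortest of 10 classes of genes by exon length the median log2 fold change between the Ubx proteins was 0.12, and 0.09 in the next class. Less the median of its class, the difference between the Ubx proteins was 0.16 for Pfdn2, 0.05 for Pfdn5 and 0.05 for Pfdn6, with no test. Between Ubx-WT and GFP the medians of these short classes were -0.06 and -0.04. For Act42A, in class 4, the median was -0.02, and its change less that median was -0.22. The count of 11 falls was 7 without GFP replicate 1, 7 without Ubx-WT replicate 3 and 8 without TMM factors.

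Among 26 regulators of actin monomers and filaments 1 rose and 6 fell with Ubx-WT, with a median of -0.08, beside the 8.72% and 7.83% of all genes. The rise was in form3, a formin gene, which went from 0.25, 0.255 and 0.37 CPM with GFP to 3.78, 3.07 and 3.82 CPM (log2 fold change 3.57, SE 0.218; edgeR adjusted p = 2.42e-07). With Ubx-N51A form3 lay between, at 0.665, 1.05 and 1.11 CPM, above GFP by 1.71 (adjusted p = 0.00205) and below Ubx-WT by a log2 fold change of -1.86 (edgeR adjusted p = 2.38e-05). The falls with Ubx-WT include the filamin gene cher (-0.35), the twinfilin gene twf (-0.22) and the formin gene Frl (-0.18). Without TMM factors this list had 4 rises and 2 falls. It had 2 falls without Ubx-WT replicate 3, and 3 without GFP replicate 1, 2 or 3 or Ubx-WT replicate 2. With Ubx-N51A 1 of the 26 rose and 3 fell by edgeR, where DESeq2 called 7 falls and 3.38% and 4.71% of all genes rose and fell. There was 1 fall without GFP replicate 1 or 3, Ubx-WT replicate 3, or Ubx-N51A replicate 1 or 2. The edgeR falls were cher (-0.32), twf (-0.22) and capt (-0.18), the gene of the cyclase-associated protein.

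Few genes of branched nucleation, the actin-related proteins and non-muscle myosin with its regulators were called. The list of Arp2/3 complex and activator genes left Arp2 and Arp3 to the actin-related proteins, and Arpc4 had no match. Of its 12 matched genes 2 fell with Ubx-WT, Arpc5 (-0.14, edgeR adjusted p = 0.0442) and Cortactin (-0.14, 0.0404). By DESeq2 there were 4 falls. There were 0 by edgeR without TMM factors, and 0 without GFP replicate 1 or 2, Ubx-WT replicate 2 or 3, or Ubx-N51A replicate 2 or 3. Over all genes 7.83% fell. Of 8 actin-related protein genes tested 1 fell with Ubx-WT, Arp3, a subunit of the Arp2/3 complex (-0.16, edgeR adjusted p = 0.0169). Arp3 also fell with Ubx-N51A (-0.14, edgeR adjusted p = 0.0434). The first Arp3 call was lost without GFP replicate 1 or 2, Ubx-WT replicate 3 or the TMM factors, and the other without GFP replicate 1, 2 or 3, Ubx-WT replicate 1 or 3, or Ubx-N51A replicate 2 or 3. The non-muscle myosin list held light chains and regulators, and the heavy chain gene zip had no match and was not examined. Of its 7 matched genes 0 were called with Ubx-WT by edgeR or DESeq2. Of these, 4 had an unadjusted p under 0.05, 1 of them higher and 3 lower. The genes of serum response factor and its actin-sensing coactivator, bs and Mrtf, were 0 of 2 called with Ubx-WT by either tool, with 1 at an unadjusted p under 0.05. Among the cell type lists, 2 of 13 blood cell genes fell with Ubx-WT and 1 with Ubx-N51A, beside 7.83% and 4.71% of all genes. The first count was 0 without GFP replicate 2 or 3, Ubx-WT replicate 3, Ubx-N51A replicate 3 or the TMM factors. It was 1 without GFP replicate 1, Ubx-WT replicate 1 or 2, or Ubx-N51A replicate 2, and 3 without Ubx-N51A replicate 1. The second was 0 without GFP replicate 2 or 3, Ubx-WT replicate 3, or Ubx-N51A replicate 1 or 3. Of 4 neuronal genes 0 were called with Ubx-WT by either tool, with 2 at an unadjusted p under 0.05.

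**Figure D4:**
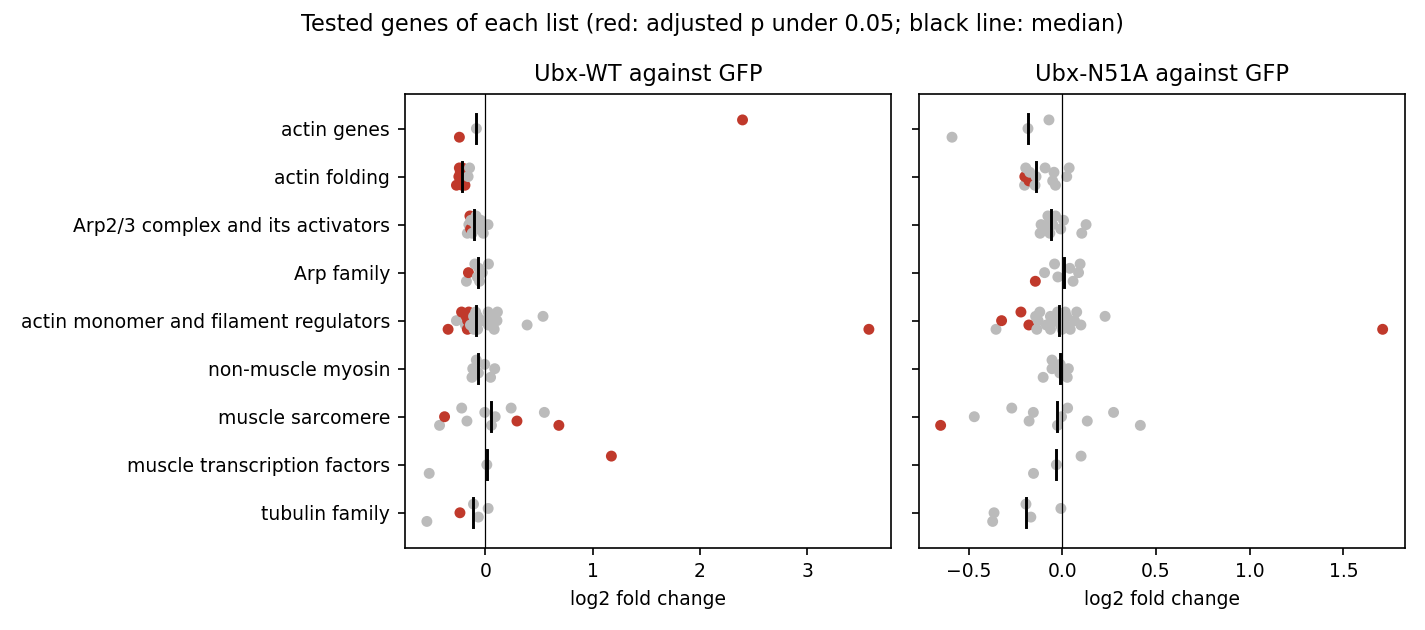
Log2 fold changes of the tested genes of each list against GFP, for Ubx-WT on the left and Ubx-N51A on the right, with red points at an adjusted p under 0.05 and a black line at the median. With Ubx-WT the actin folding genes sit together left of 0, at a median of -0.21, and Act87E and form3 stand apart on the right.

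Act5C and Act42A are often taken as loading references, so their stability over the 9 libraries was described. The highest library over the lowest was 1.24 for Act5C and 1.25 for Act42A, against a median of 1.16 for the 2248 genes of at least 100 CPM, of which 77.0% and 80.1% had a smaller ratio. Among other common reference genes, Gapdh1 had 1.13, SdhA 1.22, RpL32 1.24 and alphaTub84B 1.32. Tbp, with 1.14, and Gapdh2, with 1.18, lay below 100 CPM and so outside that set. The tubulin gene alphaTub84B fell with Ubx-WT as well (-0.24, edgeR adjusted p = 0.0234). It was the 1 called gene of 6 reference genes and of 5 tubulin genes tested, where 7.83% of all genes fell. That call was lost without GFP replicate 1 or 2, Ubx-WT replicate 2 or 3, or the TMM factors. The listed genes betaTub56D, betaTub60D and eEF1alpha1 had no match by symbol and were not examined. Only 17253 of the 17559 counted identifiers had a symbol. Whether these genes were counted under an identifier without one was not tested.

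The genes whose pattern was most like each tested member over the 9 libraries were found by Pearson's r of log2 CPM. They share the libraries and their depth, and the values are descriptions. Act42A was nearest to the zinc transporter gene ZnT63C (r = 0.993), the pseudouridine synthase gene Nop60B (0.982) and CG5281 (0.981). Act5C was nearest to Polr3G (0.939), ND-ACP (0.935) and CRIF (0.931), and its r with Act42A was 0.656. Act87E was nearest to the autophagy gene Atg18b (0.988), CG31676 (0.977) and the cell death gene skl (0.977). Their highest means lay with Ubx-WT, which follows from choosing them by their r with Act87E. CG31676 and skl were as low as Act87E itself, at 0.458 and 0.523 CPM with Ubx-WT.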

How the data were processed

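The authors deposited raw counts of reads per FlyBase gene, 1 file per library. Tools named in the submitters' processing notes are STAR, HTSeq, Trimmomatic 0.36, DESeq2, DESeq and FastQC, and the builds named are BDGP6 and dm6. Libraries were directional per the labels, but the strand setting of the counting was not found in the sources, so reads of a gene and its antisense partner can be mixed. Summary rows (no gene 1.50% to 2.27% of reads, ambiguous 3.11% to 3.32%, several alignments 3.26% to 5.05%) stayed out of library sizes and tests. Of 17559 identifiers 17253 matched a symbol. Positions and exon lengths came from Ensembl 115 (BDGP6.54), and exon length means merged exons.

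Counts were tested with edgeR 4.0.16 in R 4.3.3: filterByExpr on the groups (9207 genes), TMM, and 1 quasi-likelihood fit of all 9 libraries with the group as the term. Calls were made at a Benjamini-Hochberg adjusted p under 0.05 over all genes, SE is the fold change over the root of F, and 95% intervals use the fit's degrees of freedom. The code was tested on simulated counts. One CPM is 31.0 reads in the shallowest library. Beyond the word independent nothing tells whether libraries came from separate cultures, so p-values measure the spread between these libraries. Alternatives were another scaling, filter or test (DESeq2 1.42.0), the 2 groups alone, a replicate block, mitochondrial genes and Ubx left out, and each library left out.

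The members and the 12 gene lists were chosen with earlier results of these data known. Of 139 list entries 11 had no match and 2 were matched by a synonym. Named genes are the members, Ubx, the 3 genes most like each tested member, defining muscle markers and up to 3 called genes per direction and list. The genes srp, Pxn, NimC1, elav, Msp300, Zasp52, TpnC47D, the neighbours and the reference genes stand outside that rule.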

Additional observations from a re-analysis of the deposited data

How the results depend on the processing

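The fall of Act42A and the rise of Act87E with Ubx-WT, and the lower Act87E with Ubx-N51A than with Ubx-WT, kept their direction and call under every alternative run. Without each library in turn, Act42A ran from -0.27 to -0.21 (adjusted p at most 0.0489) and Act87E from 2.05 to 2.83 (at most 0.00542) with Ubx-WT, and Act87E from -3.22 to -2.74 (at most 0.00733) between the Ubx proteins. Act42A with Ubx-N51A against GFP passed the threshold with no filter (-0.19), by DESeq2 (-0.19) and without mitochondrial genes and Ubx (-0.19), so 1 member was called there instead of 0; without single libraries it ran from -0.21 to -0.15 and the count of members from 0 to 1. Act5C, called nowhere, changed sign between the Ubx proteins without TMM factors (-0.042) and ran there from -0.029 to 0.050 without single libraries, and from -0.14 to 0.0097 for Ubx-N51A against GFP. The cause was not tested. Without single libraries, all genes called ran from 990 to 1741 for Ubx-WT against GFP (lowest without Ubx-WT replicate 3, and 1015 without GFP replicate 2), from 362 to 823 for Ubx-N51A against GFP (362, 398, 440 and 490 without GFP replicate 2, Ubx-N51A replicate 2, GFP replicate 1 and GFP replicate 3) and from 302 to 474 between the Ubx proteins (lowest without Ubx-WT replicate 3), and under the other settings from 1370 to 1842, 607 to 953 and 393 to 658. With the replicate numbers of the titles as a replicate block, Act42A with Ubx-WT was -0.24 (adjusted p = 0.0198) and Act87E 2.40 (0.00327), Act42A with Ubx-N51A against GFP had adjusted p = 0.0927, and no call of a member changed. Correlations of deviations ran from -0.11 to 0.18 between same-numbered libraries and from -0.25 to 0.24 between libraries of unlike number. With 3 libraries per group they cannot tell whether same-numbered libraries share a culture or a day. The level of Act42A over Act5C per kilobase of merged exons was 3.32, 2.97 and 3.06 with GFP, Ubx-WT and Ubx-N51A; in alternatives chosen after seeing the data it was 1.82, 1.63 and 1.68 per kilobase of the shortest transcripts and 1.85, 1.65 and 1.71 per kilobase of their untranslated bases, since Act5C is then counted as shorter. A length from bases unique to each gene was not run.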
